A study of Mus musculus with 8 samples.

Results

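GFP-positive cells sorted from the duodenum and from the colon of adult Ngn3-GFP mice were compared, that is 5 of the 8 arrays of the series, chosen by sample title: 3 duodenal and 2 colonic arrays. In this mouse line GFP marks cells that use the promoter of Neurog3, a transcription factor on which the formation of gut endocrine cells depends. The other 3 arrays hold GFP-positive cells of the pyloric stomach and entered only the estimate of the spread between arrays and a few levels given for orientation. No treatment is named for any of these cells, and the labels give neither the strain background, the sex nor the number of mice behind an array, nor whether mice were pooled. Both intestinal segments were taken apart with EDTA and then dispase before the sort. The title of the series concerns engineered stomach tissue as a source of beta-cells, and the question answered here is how cells marked by the same reporter differ between the 2 segments of the intestine. Whether the arrays of a segment hold separate mice is not said in the labels. If they do not, the spread behind each p-value is technical rather than biological.

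Enteroendocrine cells are rare hormone-producing cells scattered through the gut epithelium. They arise from crypt progenitors that switch on Neurog3, and they sense luminal nutrients and release peptide hormones or serotonin from dense-core granules. Their hormone output changes along the gut: cholecystokinin, secretin and GIP belong to the proximal small intestine, and the L-cell products GLP-1, PYY and INSL5 become more common distally. The epithelium around them is divided as well, into a duodenum that absorbs sugars, amino acids and fat and a colon that absorbs sodium, water and short-chain fatty acids.

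Values are the deposited log2 expression values of Illumina bead arrays for 18131 gene rows, and all levels and differences below are on that scale, with 1 unit standing for a 2-fold change. A group mean under 6.85, the 95th percentile of 1075 olfactory receptor rows, is called background, and a ratio against such a mean is given as at least N-fold. The highest value in the table is 15.49, and ratios of genes close to it may be compressed. Higher and lower describe the duodenum relative to the colon throughout, and p-values are from limma, adjusted by the Benjamini-Hochberg method over all rows. With 2 colonic arrays, precision is lowest for the colon. Correlation across genes was 0.9974 to 0.9980 between the duodenal arrays and 0.9978 between the 2 colonic arrays, and no array stood apart. Fewer cells of a type and less RNA per cell cannot be told apart in such bulk samples.

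The sorted cells carried enteroendocrine markers in both segments, at higher levels in the duodenum. Chgb, a granule protein gene, read 12.11, 12.09 and 12.24 in duodenal arrays, against 10.27 and 10.33 in colonic arrays. Chga, its relative, read 10.05, 10.09 and 10.08 in duodenal arrays, against 8.36 and 8.45 in colonic arrays. The groups did not overlap for either gene, and Neurod1, a factor of endocrine differentiation, stood at 8.93 ± 0.03 (SD, n = 3) in duodenal and 7.15 ± 0.06 (SD, n = 2) in colonic arrays. Neurog3 itself read 9.72, 9.77 and 9.73 in duodenal arrays, against 8.70 and 8.76 in colonic arrays (log2 difference 1.01, SE 0.06, adjusted p = 1.47e-09). The prohormone convertase gene Pcsk1 was at background in colonic arrays (mean 6.62) and at 7.01 in duodenal arrays. All 5 enteroendocrine markers with a row were higher in duodenal arrays.

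Markers of other epithelial cells were present on the same arrays and differed between the segments. The 5 enterocyte markers averaged 10.47 to 10.52 over the duodenal arrays and 7.66 to 7.67 over the colonic arrays, although Fabp1 and Fabp2 were at background in both. The 5 tuft cell markers averaged 8.58 to 8.62 over duodenal and 6.92 to 6.93 over colonic arrays. Among them Pou2f3 was at background in both segments, and Trpm5 was at background in colonic arrays. The 5 T cell markers averaged 7.59 to 7.65 over duodenal and 6.56 to 6.68 over colonic arrays. Every T cell marker was at background in colonic arrays, and Cd8a and Ptprc were at background in duodenal arrays too. The 15 Paneth cell markers averaged 12.02 to 12.08 in duodenal and 12.93 to 12.95 in colonic arrays. Of these 15, 6 were higher and 6 lower in the duodenum, and 3 alpha-defensin rows (Defa31, DEFCR-RS10 and DEFCR-RS12) were at background in duodenal arrays. The 4 goblet cell markers averaged 11.45 to 11.49 in duodenal and 11.35 to 11.43 in colonic arrays. The 5 stromal, endothelial and muscle markers were at background in both segments. The part that these other cells play in the differences below was not tested.

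The label of the colonic arrays was set against genes with a known place along the gut. Some genes of the colonic epithelium, Slc5a8, Atp12a, Best2 and the hormone gene Insl5, were above background there and at background in the duodenum, and are given below. The 4 colonocyte markers were above background in both segments and averaged 8.20 to 8.22 over duodenal and 9.23 to 9.30 over colonic arrays. Of these markers 2 were lower in the duodenum, and Car4 and Slc26a3 did not pass the test. Genes that belong to the small intestine were also high in colonic arrays. The alpha-defensin row Defa29, chosen after its values were seen, averaged 15.41 in duodenal and 15.34 in colonic arrays, and Fabp6, a bile acid binding protein gene of the ileum, read 6.86, 6.85 and 7.07 in duodenal arrays, against 12.67 and 12.54 in colonic arrays. The bile acid importer gene Slc10a2, another ileal gene, named after its values were seen, was at background in both. Whether the colonic arrays hold material of the distal small intestine was not tested.

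By limma, 6203 of 18131 rows (34.2%) differed between duodenal and colonic arrays at an adjusted p under 0.05, 2909 of them (16.0%) higher and 3294 (18.2%) lower in the duodenum. These shares are the background against which the counts of gene lists below are read. Most differences were small: 366 rows (2.02%) were called and at least 2-fold higher and 279 (1.54%) at least 2-fold lower, together 3.56% of all rows. The arrays of the groups did not overlap for 51.9% of rows. The median difference over all rows was -0.01.

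**Figure D1:**
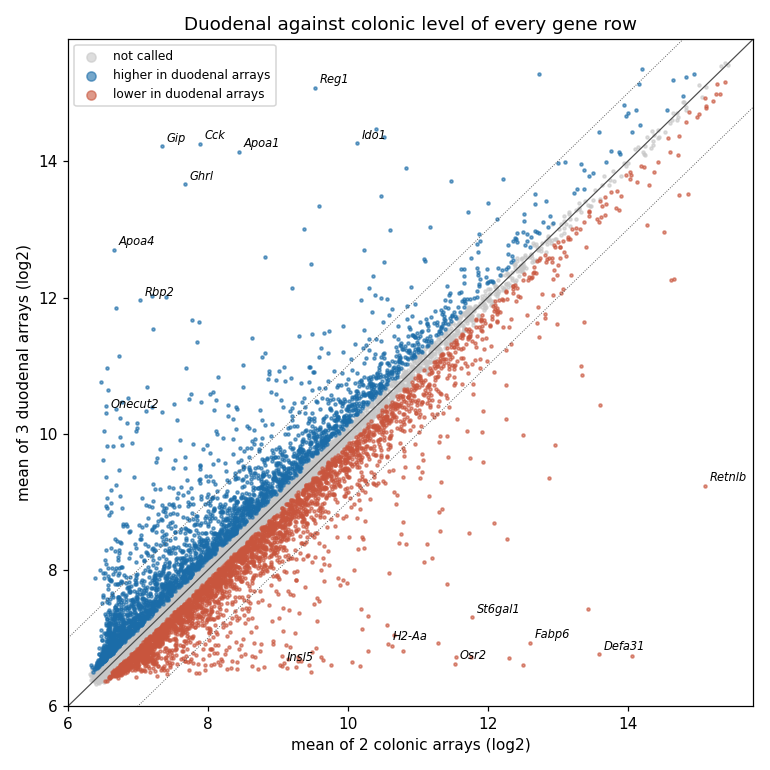
Mean of the 3 duodenal arrays (vertical axis) against the mean of the 2 colonic arrays (horizontal axis) for every gene row, both on the log2 scale. Blue points passed the test higher in duodenal arrays, red points lower, grey points did not pass, and dotted lines mark 2-fold, outside which 366 and 279 called rows lie.

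The 25 genes furthest up in the duodenum included the hormone genes Gip, Cck, Ghrl, Gast and Sst and the apolipoprotein genes Apoa4, Apoa1 and Apoc3. Their log2 differences ran between 3.69 and 6.88, and 9 of them were at background in colonic arrays. Beyond those described in their groups below, Afp, the fetal serum protein alpha-fetoprotein, read 11.17, 11.14 and 11.14 in duodenal arrays, against 6.76 and 6.68 in colonic arrays (at least 19.7-fold higher, adjusted p = 1.36e-16). Ambp, which encodes the precursor of alpha-1-microglobulin and bikunin, read 12.01, 12.05 and 11.99 in duodenal arrays, against 7.26 and 7.15 in colonic arrays (28.1-fold higher, adjusted p = 2.55e-17). Both genes are best known from the liver. Slc25a45, a mitochondrial carrier gene, was 20.1-fold higher, Prap1, a secreted proline-rich protein gene, 14.4-fold, Tm4sf4, a tetraspanin-like membrane protein gene, 13.7-fold and the sulfotransferase gene Sult6b2 at least 11.8-fold higher. In gastric arrays, 1 of these 25 genes, Adh4, was at background.

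The 25 genes furthest down in the duodenum included Defa31, Retnlb, Fabp6, Osr2 and St6gal1, described in their groups below. Their log2 differences were 3.08 to 6.84 in size, with 9 of them at background in duodenal arrays and 11 in gastric arrays. The uncharacterised gene 1810065E05Rik read 7.47, 7.34 and 7.45 in duodenal arrays, against 13.44 and 13.44 in colonic arrays (65.0-fold lower, adjusted p = 3.10e-18), and no duodenal array came near a colonic one. Slpi, a secreted inhibitor of leukocyte proteases, read 6.55, 6.76 and 6.84 in duodenal arrays, against 11.88 and 11.64 in colonic arrays (at least 30.1-fold lower, adjusted p = 1.74e-15). Wfdc2, a gene of the same whey acidic protein family, was 14.2-fold lower in duodenal arrays. Hao2, a peroxisomal hydroxyacid oxidase gene, was 20.6-fold lower, Lrg1, a leucine-rich secreted glycoprotein gene, at least 15.4-fold, the gasdermin gene Gsdmc2 13.4-fold and the lactoperoxidase gene Lpo at least 10.1-fold lower. Ddah1, which degrades methylated arginines, was 12.3-fold lower, the G-protein gene Gna14 at least 7.51-fold, and the surface protein genes Ly6a and Cd177 11.5-fold and 10.6-fold lower. The row AY761185, which is given no role here, was at least 43.7-fold lower. Hsd11b2, which inactivates glucocorticoids in sodium-absorbing epithelia, read 7.10, 7.19 and 7.09 in duodenal arrays, against 10.09 and 10.31 in colonic arrays (8.44-fold lower, adjusted p = 4.12e-14).

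Peptide hormone genes differed between the segments by up to 118-fold. Of 27 listed precursors with a row, 13 were higher and 3 lower in duodenal arrays, 11 did not pass the test, and 8 of the 27 were at background in both groups. The median difference over the list was 0.07. The hormones of the proximal gut had the largest differences in the list. Gip, the precursor of glucose-dependent insulinotropic peptide made by K cells, read 14.29, 14.10 and 14.27 in duodenal arrays, against 7.34 and 7.33 in colonic arrays (log2 difference 6.88, SE 0.07, adjusted p = 1.74e-17). Cck, made by I cells, read 14.22, 14.33 and 14.22 in duodenal arrays, against 7.87 and 7.91 in colonic arrays (82.5-fold higher, adjusted p = 3.10e-18). Ghrl, the ghrelin gene, read 13.64, 13.65 and 13.69 in duodenal arrays, against 7.72 and 7.62 in colonic arrays (63.4-fold higher, adjusted p = 3.10e-18). All duodenal arrays were far above the colonic ones, whose values were low but above the background level.

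Sct, the secretin gene of S cells, was present in both segments and read 15.30, 15.27 and 15.27 in duodenal arrays, against 12.67 and 12.79 in colonic arrays. The 3 duodenal arrays are near the top of the scale, and the 5.87-fold ratio may therefore be compressed. Sst, the somatostatin gene of D cells, read 14.48, 14.41 and 14.55 in duodenal arrays, against 10.37 and 10.42 in colonic arrays, a 16.9-fold difference (adjusted p = 1.72e-16). Nts, the neurotensin gene, read 10.29, 10.37 and 10.39 in duodenal arrays, against 8.77 and 8.71 in colonic arrays and was 3.05-fold higher. Gast, the gastrin gene of antral G cells, read 10.94, 10.97 and 10.97 in duodenal arrays, against 6.59 and 6.52 in colonic arrays (at least 17.3-fold higher, adjusted p = 2.22e-17). Gastric arrays averaged 15.49 for Gast and 15.26 for Ghrl. Iapp, the amylin gene, was at least 3.05-fold higher in duodenal arrays, Ucn3, a urocortin gene, at least 1.68-fold, Cartpt at least 1.52-fold and Nmu, the neuromedin U gene, at least 1.16-fold higher, all against colonic means at background.

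The L-cell genes Gcg and Pyy differed little. Gcg, the proglucagon gene that yields GLP-1, read 11.47, 11.45 and 11.56 in duodenal arrays, against 11.09 and 10.99 in colonic arrays. Pyy, the peptide YY gene, read 11.49, 11.48 and 11.55 in duodenal arrays, against 11.02 and 11.10 in colonic arrays. In both genes the groups did not overlap, yet the ratios were only 1.37-fold and 1.36-fold (95% interval of the log2 difference 0.33 to 0.58 for Gcg and 0.33 to 0.55 for Pyy). Insl5, whose product is an orexigenic peptide of distal L cells, read 6.59, 6.63 and 6.55 in duodenal arrays, against 9.14 and 8.97 in colonic arrays and was at least 4.62-fold lower in the duodenum. Tac1, the substance P precursor gene of serotonin cells, read 9.66, 9.63 and 9.55 in duodenal arrays, against 10.14 and 10.15 in colonic arrays, 1.45-fold lower in duodenal arrays. Ppy, the pancreatic polypeptide gene, had means of 6.53 in duodenal and 7.33 in colonic arrays and was at least 1.39-fold lower. The neuropeptide genes Adcyap1, Npy, Grp, Vip, Gal, Trh, Pdyn and Calcb were at background in both segments, and Nmb, Nucb2 and Calca did not pass the test.

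**Figure D2:**
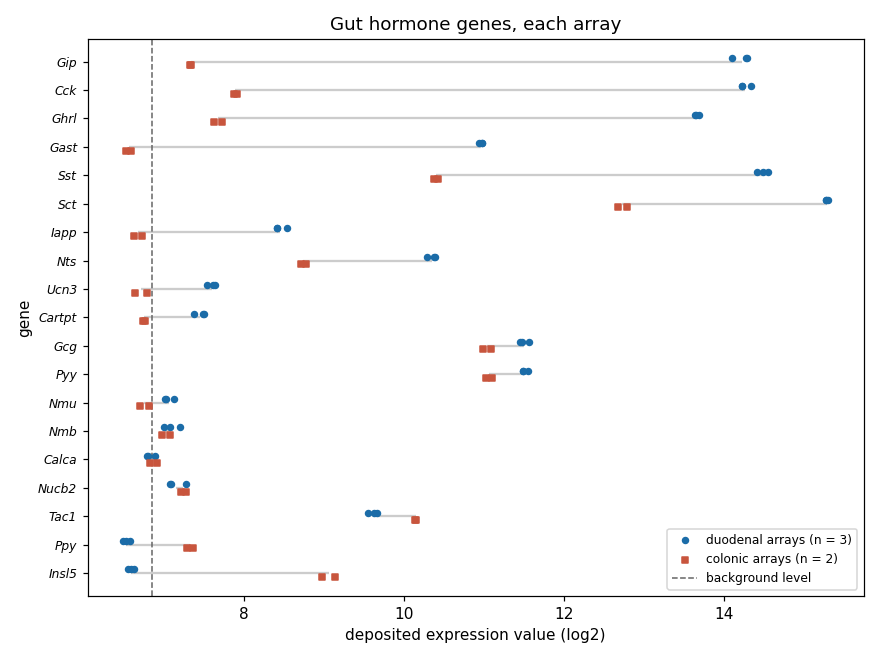
Deposited log2 values of the 19 hormone genes above background in at least 1 segment, with 1 point for each of the 3 duodenal (blue circles) and 2 colonic arrays (red squares), ordered by the difference. Gip, Cck and Ghrl lie furthest to the duodenal side, Gcg and Pyy nearly coincide, and Tac1, Ppy and Insl5 are lower in duodenal arrays.

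Genes for serotonin and histamine handling were higher in the duodenum for 11 of 12, and lower for none (median 0.78). Tph1, the rate-limiting enzyme of serotonin synthesis in enterochromaffin cells, read 10.18, 10.23 and 10.16 in duodenal arrays, against 7.43 and 7.69 in colonic arrays (6.21-fold higher, adjusted p = 2.62e-13). Ddc, the decarboxylase of the next step, read 11.06, 11.17 and 11.13 in duodenal arrays, against 9.51 and 9.66 in colonic arrays (2.90-fold higher, adjusted p = 5.25e-10). Gch1, which supplies the cofactor of Tph1, was 2.03-fold higher, Maob, which degrades amines, 2.31-fold, and the serotonin transporter gene Slc6a4 1.99-fold higher. Hdc, which makes histamine, had means of 7.67 in duodenal and 6.88 in colonic arrays. Tac1, which is made by the same cells, went the other way.

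Granule and prohormone processing genes were higher for 13 of 15 and lower for none (median 0.67). Scg2, a granin gene, read 10.49, 10.41 and 10.51 in duodenal arrays, against 6.65 and 6.88 in colonic arrays (at least 12.2-fold higher, adjusted p = 3.27e-15). The colonic arrays lie on both sides of the background level. Scg5, a chaperone gene of the convertase PC2, read 9.57, 9.63 and 9.54 in duodenal arrays, against 7.26 and 7.23 in colonic arrays and was 5.04-fold higher. Scg3 was 3.88-fold higher, Resp18 3.58-fold, Chgb 3.60-fold and Chga 3.18-fold higher. Genes of exocytosis and excitability were higher for 12 of 30 and lower for 1, with 11 at background in both segments (none lower without colonic replicate 1). Rab27a, a granule-docking GTPase gene that many secretory cells use, was 3.16-fold higher. The complexin gene Cplx1, the calcium channel subunit gene Cacna2d1, Rab3b and Stx1a were at least 1.73-fold, at least 1.42-fold, 1.53-fold and 1.51-fold higher.

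Endocrine lineage factors were higher in the duodenum for 14 of 26 and lower for 2, with 8 at background in both. Isl1, a LIM homeobox gene of maturing hormone cells, read 9.58, 9.67 and 9.75 in duodenal arrays, against 7.70 and 7.65 in colonic arrays (3.97-fold higher, adjusted p = 8.77e-13). Neurod1, a target of Neurog3, was 3.45-fold higher, Rfx6, which acts in the same pathway, 2.42-fold, and Insm1, a zinc finger factor of endocrine precursors, 1.99-fold higher. The duodenal arrays exceeded the colonic arrays throughout these 4 genes. Foxa1, a forkhead factor of goblet and endocrine cells, ran opposite and read 9.33, 9.28 and 9.29 in duodenal arrays, against 10.43 and 10.57 in colonic arrays, 2.29-fold lower in the duodenum. Most tuft cell and enterocyte markers were higher in the same arrays, as given above, and their part in these counts was not tested.

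Receptors that let these cells sense nutrients and peptides were mostly near background. Of 21 nutrient and ligand receptor genes, 3 were higher, 4 lower and 14 at background in both segments. Without colonic replicate 2, 1 was higher, and with only rows above the background level kept, 0 were higher. The 4 lower genes differed by small amounts. Ffar4, a receptor for long-chain fatty acids, read 10.70, 10.75 and 10.69 in duodenal arrays, against 11.18 and 11.13 in colonic arrays. Ffar2, a receptor for the short-chain fatty acids that colonic bacteria make, read 10.18, 10.16 and 10.06 in duodenal arrays, against 10.47 and 10.53 in colonic arrays. The ratios were 1.36-fold and 1.29-fold, and the groups did not overlap for either gene. Adra2a, an adrenergic receptor gene, was 1.26-fold and Gpr35 1.20-fold lower. Of 23 peptide and transmitter receptor genes, 18 were at background in both segments, and Sstr5, a somatostatin receptor gene, was at least 1.29-fold higher in duodenal arrays.

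Regional transcription factors split into duodenal and colonic sets. Of 22 listed, 10 were higher and 6 lower in duodenal arrays, and 6 did not pass. Onecut2, a cut-homeobox factor of the duodenum, read 10.31, 10.30 and 10.30 in duodenal arrays, against 6.59 and 6.48 in colonic arrays (at least 10.97-fold higher, adjusted p = 7.29e-15). Creb3l3, a fasting-responsive activator of apolipoprotein genes, read 9.82, 9.86 and 9.83 in duodenal arrays, against 6.78 and 6.77 in colonic arrays (at least 7.94-fold higher, adjusted p = 1.74e-15). Pdx1, which patterns antrum, duodenum and pancreas, read 9.19, 9.14 and 9.19 in duodenal arrays, against 6.47 and 6.77 in colonic arrays (at least 5.01-fold higher, adjusted p = 2.24e-12), and Meis2, a Hox cofactor gene, 8.88, 9.02 and 9.04 in duodenal arrays, against 6.57 and 6.65 in colonic arrays (at least 4.38-fold higher, adjusted p = 2.78e-13). Colonic arrays were at background for these 4 genes. Gata4, a proximal intestinal factor, had means of 7.30 in duodenal and 6.65 in colonic arrays and was at least 1.37-fold higher, and its relatives Gata5 and Gata6 were 1.53-fold and 1.51-fold higher. Hnf4g, a nuclear receptor of enterocytes, was 1.46-fold higher, whereas Hnf4a did not pass the test (log2 difference 0.11, 95% interval -0.02 to 0.23, adjusted p = 0.179).

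Osr2, an odd-skipped zinc finger factor, marked the colonic arrays. It read 6.69, 6.64 and 6.53 in duodenal arrays, against 11.52 and 11.54 in colonic arrays, at least 25.7-fold lower in the duodenum, where all 3 arrays were at background. Cdx2 and Cdx1, caudal homeobox factors that specify intestine over stomach, read 10.58, 10.57 and 10.60 in duodenal arrays, against 11.86 and 11.73 in colonic arrays for Cdx2 and 10.72, 10.74 and 10.71 in duodenal arrays, against 11.79 and 11.77 in colonic arrays for Cdx1. They were 2.31-fold and 2.09-fold lower in duodenal arrays. Klf5, a factor of proliferating crypt cells, was 1.81-fold lower. Isx, an intestinal homeobox factor that limits vitamin A uptake, stood at 10.69 ± 0.03 (SD, n = 3) in duodenal and 10.71 ± 0.01 (SD, n = 2) in colonic arrays and did not pass the test. Sox2 and Barx1, factors of the stomach, were at background in both segments. Maf and Onecut3 passed the test with both means at background.

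Hox genes, which give position along the body axis, were lower in the duodenum for 17 of 39 and higher for 1, with 21 at background in both segments. The differences sat in the middle of the A, B and D clusters. Among paralogue numbers 4 to 9, 11 of 19 genes were lower and 7 at least 2-fold. Among numbers 1 to 3, 2 of 8 were lower, and among numbers 10 to 13, 4 of 12, none of them 2-fold. Hoxb7 read 6.52, 6.56 and 6.41 in duodenal arrays, against 9.56 and 9.39 in colonic arrays (at least 6.19-fold lower, adjusted p = 4.01e-14). Hoxa7 read 6.65, 6.69 and 6.80 in duodenal arrays, against 9.28 and 9.28 in colonic arrays (at least 5.40-fold lower, adjusted p = 3.93e-14), and Hoxb6 6.79, 6.67 and 6.61 in duodenal arrays, against 9.06 and 9.23 in colonic arrays (at least 4.91-fold lower, adjusted p = 6.03e-13). Going down the B cluster, Hoxb4, Hoxb5, Hoxb6 and Hoxb7 averaged 7.95, 8.52, 9.14 and 9.48 in colonic arrays. In duodenal arrays they averaged 6.91, 6.76, 6.69 and 6.49, and only Hoxb4 was above background there. Hoxb9 averaged 6.58 in duodenal and 7.46 in colonic arrays. Hoxb8 was at background in both, and Hoxb2 was 1.24-fold higher in the duodenum. None of the 9 HoxC genes was above background. The most posterior genes were close to background in both segments. Hoxa13, Hoxd13 and Hoxb13 averaged 6.89, 6.72 and 6.50 in duodenal arrays, against 7.17, 6.93 and 6.78 in colonic arrays.

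**Figure D3:**
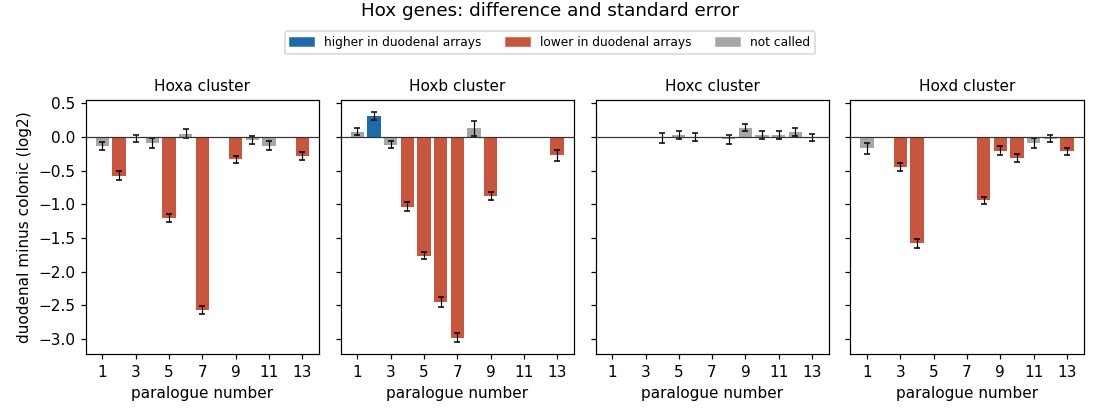
Duodenal minus colonic log2 difference of each of 39 Hox genes by cluster and paralogue number, with the standard error of the fit. Bars below 0 are lower in duodenal arrays; the deepest are Hoxb7, Hoxa7 and Hoxb6, the HoxC genes lie around 0, and Hoxb2 is the only blue bar.

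The nuclear receptor genes had a mixed pattern, with 6 higher, 5 lower and 14 not called among 25. Nr1i3, the xenobiotic receptor CAR, read 8.63, 8.68 and 8.61 in duodenal arrays, against 6.81 and 6.87 in colonic arrays. Nr1h4, the bile acid receptor FXR, read 9.94, 9.97 and 9.98 in duodenal arrays, against 11.34 and 11.30 in colonic arrays. They moved in opposite directions, at least 3.44-fold higher and 2.56-fold lower in the duodenum. Pparg, a fatty acid receptor gene of the colon, was 1.82-fold lower and Nr1d2, a clock component, 1.93-fold higher.

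Because regional factors differed, the promoters of 4 leading genes are shown with the core letters of sites for such factors. RefSeq promoter windows (GRCm38.p6), 250 bases before the annotated start, were found for 21 of the 25 highest and 18 of the 25 lowest genes and for 13415 of all tested genes. Capitals mark exact matches on either strand to 4 motifs, and the windows run 5′ to 3′ along the gene's strand. The motif for factors of the GATA family was AGATAA. The motif for caudal (CDX) factors was TTTATG. HNF4 was represented by CAAAGT, and HNF1 by GTTAAT, and matches of different motifs did not overlap in these windows. Gip, Cck and Rbp2 were high in the duodenum and Fabp6 in the colonic arrays.
Gip promoter, chr11:96024295-96024544 (+ strand): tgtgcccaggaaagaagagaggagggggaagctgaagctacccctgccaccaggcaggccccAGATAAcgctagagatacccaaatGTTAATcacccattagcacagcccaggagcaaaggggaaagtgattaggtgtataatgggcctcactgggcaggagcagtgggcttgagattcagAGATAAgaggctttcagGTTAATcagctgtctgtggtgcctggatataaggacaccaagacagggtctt
Cck promoter, chr9:121495695-121495944 (- strand): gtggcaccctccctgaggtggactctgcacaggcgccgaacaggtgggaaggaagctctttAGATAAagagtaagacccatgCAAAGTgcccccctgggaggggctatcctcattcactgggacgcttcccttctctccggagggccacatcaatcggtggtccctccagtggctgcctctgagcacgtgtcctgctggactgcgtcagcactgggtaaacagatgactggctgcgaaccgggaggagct
Rbp2 promoter, chr9:98490287-98490536 (+ strand): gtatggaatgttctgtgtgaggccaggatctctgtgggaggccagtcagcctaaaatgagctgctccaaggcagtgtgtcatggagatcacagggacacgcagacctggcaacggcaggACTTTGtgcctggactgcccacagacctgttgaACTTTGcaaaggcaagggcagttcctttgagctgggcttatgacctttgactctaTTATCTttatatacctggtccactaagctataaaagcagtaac
Fabp6 promoter, chr11:43601563-43601812 (- strand): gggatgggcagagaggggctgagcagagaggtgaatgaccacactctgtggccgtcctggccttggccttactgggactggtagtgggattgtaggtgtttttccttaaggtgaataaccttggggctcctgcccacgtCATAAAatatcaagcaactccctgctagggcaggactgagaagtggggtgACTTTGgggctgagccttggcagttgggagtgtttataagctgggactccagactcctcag
The Gip window holds AGATAA at -188 and -69 and GTTAAT at -164 and -52, counted from the start. Cck has AGATAA at -189 and CAAAGT at -168, and Rbp2 has 1 GATA and 2 HNF4 matches on the opposite strand. Fabp6 has the CDX letters at -111 and the HNF4 letters at -61, both on the opposite strand. Over genes, AGATAA was found in 33.3% of the 21 highest, in 11.1% of the 18 lowest and in 10.1% of all 13415. TTTATG was found in 9.52%, 27.8% and 10.6% in the same order of gene groups. CAAAGT was found in 28.6%, 22.2% and 13.9%, and GTTAAT in 14.3%, 16.7% and 6.80%. These are counts of letters in short windows over few genes, without a test.

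Fat absorption genes were far higher in the duodenum. Of 19 listed genes 15 were higher and 0 lower, with a median of 1.18 (without duodenal replicate 3, 1 gene was lower). Apolipoprotein genes that lie side by side on chromosome 9 led the list. Apoa4, a chylomicron apolipoprotein induced by fat, read 12.74, 12.72 and 12.65 in duodenal arrays, against 6.66 and 6.65 in colonic arrays (at least 57.9-fold higher, adjusted p = 4.10e-18). Apoc3, which slows triglyceride clearance, read 11.84, 11.84 and 11.84 in duodenal arrays, against 6.68 and 6.68 in colonic arrays (at least 31.9-fold higher, adjusted p = 1.91e-17). Apoa1, the main HDL protein gene, read 14.14, 14.14 and 14.14 in duodenal arrays, against 8.49 and 8.39 in colonic arrays (51.9-fold higher, adjusted p = 6.24e-18). For each of these genes all duodenal arrays were far above the colonic ones. Mttp, which loads lipid onto apolipoprotein B, was 6.86-fold higher, Mogat2, which re-esterifies monoglycerides, 5.94-fold, and the colipase gene Clps 8.12-fold higher. Fabp1 and Fabp2, the most abundant fatty acid binding protein genes of enterocytes, were at background in both segments on these rows and are given no ratio.

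Digestive enzymes of the brush border followed. Of 22 genes 20 were higher and 2 lower, so that every listed gene with a row passed the test, although 1 was at background in both segments. Treh, which splits trehalose, read 12.03, 11.98 and 11.99 in duodenal arrays, against 7.34 and 7.46 in colonic arrays (24.3-fold higher, adjusted p = 2.55e-17). Sis, the sucrase-isomaltase gene, was well expressed in both and read 12.70, 12.71 and 12.68 in duodenal arrays, against 10.21 and 10.25 in colonic arrays (5.52-fold higher, adjusted p = 2.69e-14). The aminopeptidase gene Anpep was 6.82-fold higher, the neprilysin gene Mme at least 4.18-fold and the enteropeptidase gene Tmprss15, whose product activates trypsinogen in the duodenum, at least 4.62-fold higher. The 2 lower genes, named after their values were seen, were Mep1a (2.72-fold) and Naaladl1 (2.21-fold).

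Uptake transporters for sugars and amino acids were higher in the duodenum for 11 of 17 and lower for 3. Slc6a19, the apical carrier of neutral amino acids, read 10.06, 10.05 and 9.99 in duodenal arrays, against 7.03 and 6.92 in colonic arrays (8.34-fold higher, adjusted p = 2.20e-15). Slc2a2, the basolateral glucose and fructose transporter GLUT2, read 8.93, 8.96 and 8.92 in duodenal arrays, against 6.61 and 6.46 in colonic arrays (at least 4.26-fold higher, adjusted p = 8.36e-14), and Slc2a5, the fructose transporter GLUT5, 8.30, 8.25 and 8.34 in duodenal arrays, against 6.69 and 6.75 in colonic arrays (at least 2.73-fold higher, adjusted p = 2.07e-11). For both sugar transporters the colonic arrays were at background. Slc7a9, a cystine and dibasic amino acid carrier, was 3.19-fold higher and the exchanger subunits Slc7a8 and Slc3a2 2.64-fold and 2.55-fold higher. Slc5a1, the sodium-glucose cotransporter SGLT1, added after its values were seen, was 2.50-fold higher. The enzymes that handle fructose and glucose inside the cell moved the same way, with 8 of 10 higher and 1 lower. Khk, the fructokinase gene, read 11.16, 11.12 and 11.29 in duodenal arrays, against 8.86 and 8.78 in colonic arrays (5.16-fold higher, adjusted p = 2.90e-13), Fbp1, a gluconeogenic phosphatase gene, was 4.23-fold and Tkfc, the triokinase gene, 2.48-fold higher. Glycolysis genes had no common direction, with 4 higher and 5 lower of 12, and the higher genes numbered 2 and 1 without colonic replicates 1 and 2. Aldoa, the glycolytic aldolase, was 1.76-fold lower.

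Ion, water and acid-base transport ran the opposite way, with 19 of 33 genes lower and 7 higher in the duodenum (median -0.21). Slc5a8, a sodium-coupled carrier of short-chain fatty acids, read 6.70, 6.56 and 6.68 in duodenal arrays, against 10.06 and 10.06 in colonic arrays (at least 9.27-fold lower, adjusted p = 1.06e-15). Atp12a, the colonic proton-potassium pump, read 6.76, 6.70 and 6.70 in duodenal arrays, against 9.69 and 9.53 in colonic arrays (at least 6.78-fold lower, adjusted p = 1.80e-14). Best2, an anion channel of colonic goblet cells, read 6.60, 6.70 and 6.67 in duodenal arrays, against 9.27 and 9.29 in colonic arrays (at least 5.39-fold lower, adjusted p = 9.08e-15). Duodenal arrays were at background for all 3. Aqp4, a water channel gene, was 5.46-fold lower, the carbonic anhydrase gene Car2 4.99-fold lower and the epithelial sodium channel subunit gene Scnn1b, outside the naming rule, at least 2.97-fold lower. In the colonocyte list 8 of 12 genes were lower and 1 higher, with a median of -0.94. In the other direction, Slc26a6, an anion exchanger that secretes bicarbonate, read 10.60, 10.56 and 10.57 in duodenal arrays, against 7.98 and 8.07 in colonic arrays (5.87-fold higher, adjusted p = 1.76e-12). S100g, the calcium-binding protein of duodenal calcium uptake, and Aqp3, both named after their values were seen, were 2.91-fold and at least 2.52-fold higher. Car4 and Slc26a3, which are often used as colonocyte markers, did not pass the test, with means of 10.45 in duodenal and 10.51 in colonic arrays for Car4.

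**Figure D4:**
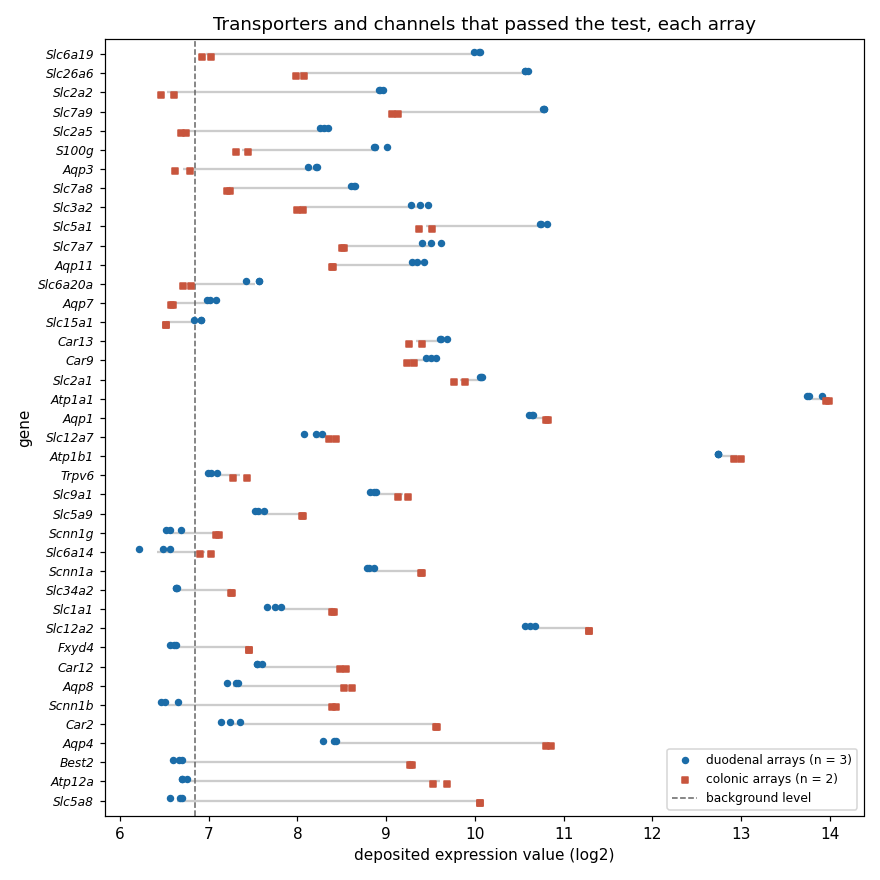
Deposited log2 values of the sugar, amino acid, ion and water transport genes that passed the test and were above background in a segment, with 1 point per array (3 duodenal, blue circles; 2 colonic, red squares), ordered by the difference. Nutrient carriers such as Slc6a19 and Slc2a2 lie at the top, and Slc5a8, Atp12a and Best2, with duodenal arrays at the dashed background level, at the bottom.

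Iron and heme genes showed modest changes, with 4 higher and 2 lower of 12 (1 lower without either colonic array or without duodenal replicate 3). Slc46a1, the proton-coupled folate carrier once described as a heme carrier, was 3.24-fold higher in the duodenum, the iron exporter gene Slc40a1 1.48-fold and the ferritin heavy chain gene Fth1 1.46-fold higher. Tfrc, the transferrin receptor gene, was 1.33-fold lower. In the bile acid and sterol list 3 genes were higher and 4 lower of 10. The sterol export genes Abcg5 and Abcg8 were 2.15-fold and 1.65-fold higher and the canalicular-type pump gene Abcc2 at least 1.96-fold higher. Besides Fabp6, which was 51.3-fold lower, Abcc3 and Slc51b, basolateral export genes, were 1.60-fold and 1.47-fold lower.

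Fatty acid oxidation and sterol synthesis diverged. Of 21 oxidation genes 12 were higher and 3 lower in the duodenum, 1 of the higher genes by 2-fold, with the thiolase gene Acaa2 2.11-fold and the peroxisomal gene Hsd17b4 1.89-fold higher. Acads, the short-chain acyl-CoA dehydrogenase gene, was 2.11-fold lower. Of 19 cholesterol synthesis genes, 11 were lower and 3 higher (median -0.36), none by 2-fold. Mvd, an enzyme of the mevalonate steps, was 1.92-fold lower and Srebf2, its master regulator, 1.78-fold lower. Among retinoid and alcohol dehydrogenase genes 12 of 22 were higher. Rbp2, the retinol-binding protein of absorptive cells, read 11.93, 11.94 and 12.00 in duodenal arrays, against 7.10 and 6.95 in colonic arrays (30.6-fold higher, adjusted p = 2.55e-17). Adh4 was at least 11.4-fold and the retinol dehydrogenase gene Rdh7 8.62-fold higher.

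Drug-metabolising genes were mostly higher in the duodenum. Of 19 cytochrome P450 genes 10 were higher and 3 lower, and of 26 conjugation genes 17 were higher and 6 lower. Without duodenal replicate 2, 1 P450 gene was lower. Cyp3a11, the main drug-oxidising P450 of mouse liver and gut, read 9.99, 10.09 and 10.05 in duodenal arrays, against 6.55 and 6.47 in colonic arrays (at least 9.15-fold higher, adjusted p = 4.51e-16). Cyp2b10, a classic target of CAR, read 9.86, 9.77 and 9.81 in duodenal arrays, against 6.63 and 6.65 in colonic arrays (at least 7.80-fold higher, adjusted p = 1.57e-15). Cyp3a25 was at least 6.79-fold higher. Gsta1 and Gsta2, glutathione transferases so alike that array probes may not separate them, were 12.5-fold and 13.5-fold higher. Each class had a member with the opposite sign. Cyp2c55, a colonic P450, read 8.09, 8.12 and 8.12 in duodenal arrays, against 11.07 and 11.11 in colonic arrays, 7.89-fold lower. Sult1a1, a phenol sulfotransferase gene, read 6.81, 6.67 and 6.68 in duodenal arrays, against 11.62 and 11.47 in colonic arrays, at least 26.0-fold lower in the duodenum.

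**Figure D5:**
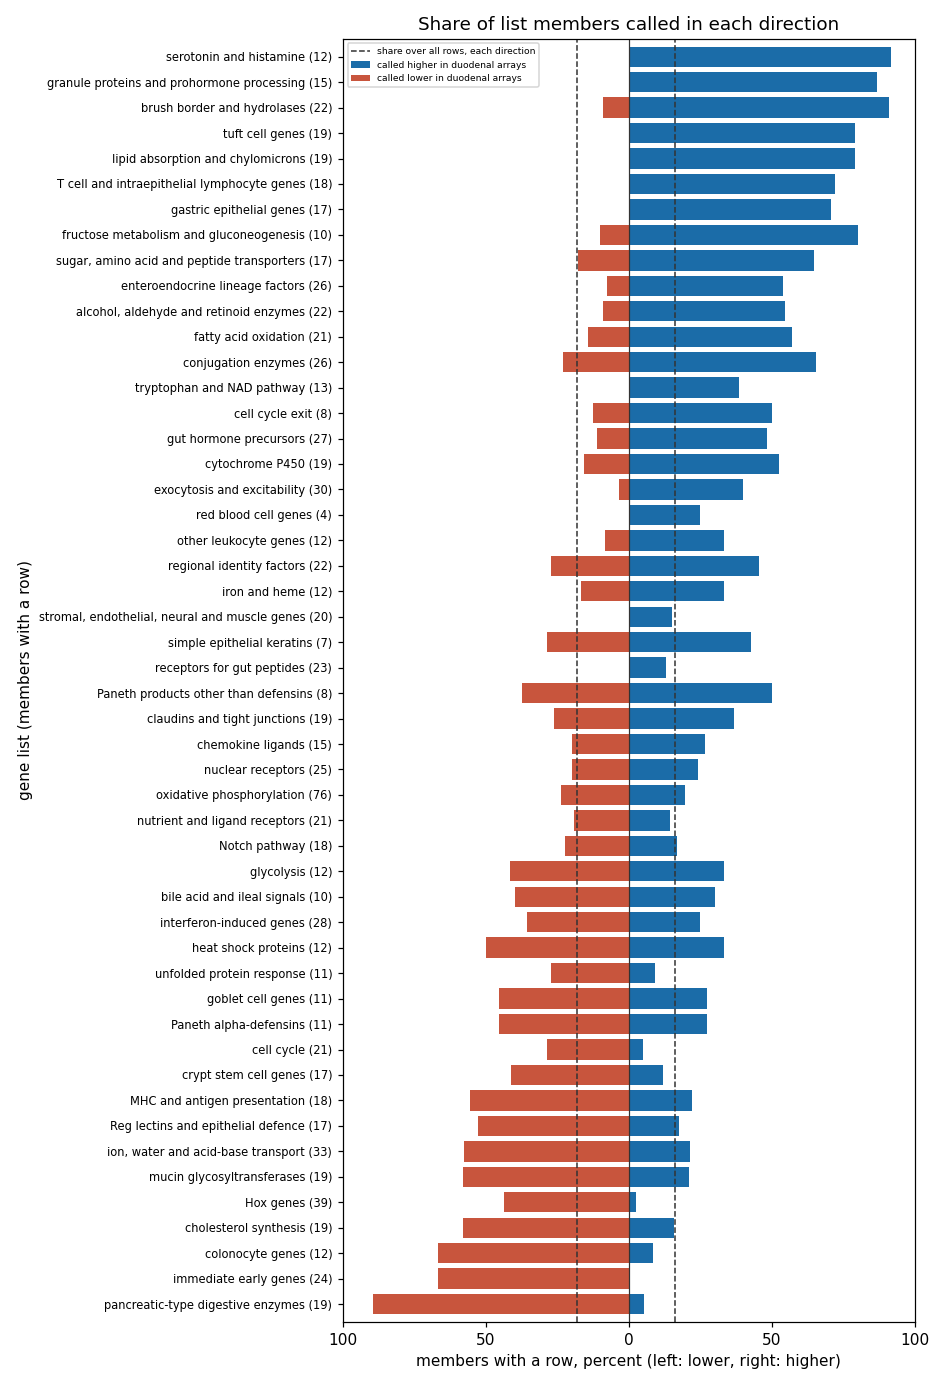
Share of each gene list's members with a row (number in brackets) that passed the test higher (blue, to the right) or lower (red, to the left) in duodenal arrays, in percent. Dashed lines mark the share over all 18131 rows, 16.0% higher and 18.2% lower; lists with bars near these lines do not stand out from the background.

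Glycosyltransferase genes were mostly lower in the duodenum, and goblet cell genes had members in both directions. Of 11 goblet cell genes 3 were higher and 5 lower, and Zg16 and Spink4, named after their values were seen, were above 15 in both segments and did not pass the test. Retnlb, a bactericidal resistin-like protein gene of distal goblet cells, read 9.26, 9.23 and 9.20 in duodenal arrays, against 15.16 and 15.07 in colonic arrays, 59.0-fold lower in the duodenum, with colonic arrays near the top of the scale. Creb3l1 and Spdef, factors of secretory cell maturation, were 2.35-fold and 1.60-fold lower. Of 19 glycosyltransferase genes, 11 were lower and 4 higher (median -0.45). St6gal1, which adds sialic acid to N-glycans, read 7.23, 7.35 and 7.34 in duodenal arrays, against 11.83 and 11.73 in colonic arrays (22.2-fold lower, adjusted p = 7.90e-17). Fut2, which adds terminal fucose to mucins, read 7.76, 7.78 and 7.84 in duodenal arrays, against 11.36 and 11.46 in colonic arrays (12.3-fold lower, adjusted p = 3.57e-16). B3galt5, which builds type 1 chains, read 8.56, 8.46 and 8.59 in duodenal arrays, against 11.82 and 11.65 in colonic arrays (9.17-fold lower, adjusted p = 3.58e-14). The groups were far apart in these 3 genes. St3gal4, another sialyltransferase gene, was 2.82-fold higher in the duodenum.

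Many Paneth cell genes were high in both segments. Among 11 alpha-defensin rows 3 were higher, 5 lower and 3 did not pass. By at least 2-fold, 4 of the 11 were lower and 0 higher. These genes are near-identical copies, so signal may be shared between rows. Defa31 read 6.88, 6.73 and 6.66 in duodenal arrays, against 13.57 and 13.62 in colonic arrays (at least 107-fold lower, adjusted p = 4.00e-18) and the row DEFCR-RS10 6.68, 6.59 and 6.54 in duodenal arrays, against 12.54 and 12.46 in colonic arrays (at least 50.3-fold lower, adjusted p = 4.00e-18). The rows DEFCR-RS12 and DEFCR4 were at least 4.53-fold and 3.36-fold lower, and the row DEFCR6 was 1.56-fold higher in the duodenum. Lyz1, the Paneth lysozyme gene, read 13.52, 13.55 and 13.48 in duodenal arrays, against 12.62 and 12.74 in colonic arrays (1.79-fold higher, adjusted p = 9.75e-09), and the angiogenin gene Ang4 was 2.78-fold higher. Mptx1, a pentraxin gene, and Pla2g2a, a secreted phospholipase gene, were 9.13-fold and 3.29-fold lower. Of 8 Paneth products other than defensins, 4 were higher and 3 lower. Of 17 genes of Reg lectins and epithelial defence, 3 were higher and 9 lower. Reg1 read 15.10, 15.07 and 15.07 in duodenal arrays, against 9.61 and 9.46 in colonic arrays (46.6-fold higher, adjusted p = 1.28e-17). Reg3b and Reg3g, antibacterial lectins, were lower and read 12.32, 12.26 and 12.19 in duodenal arrays, against 14.69 and 14.55 in colonic arrays (5.16-fold lower, adjusted p = 2.01e-13) for Reg3b and 12.29, 12.25 and 12.26 in duodenal arrays, against 14.64 and 14.69 in colonic arrays (5.28-fold lower, adjusted p = 3.84e-14) for Reg3g. The acute phase genes Saa1 and Saa3 were at least 3.67-fold and at least 2.24-fold lower.

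Stomach-type genes were higher in the duodenum for 12 of 17 and lower for none. Tff2, a trefoil factor of mucous neck and Brunner glands, read 11.70, 11.65 and 11.68 in duodenal arrays, against 7.80 and 7.76 in colonic arrays (14.9-fold higher, adjusted p = 7.90e-17). Gkn2, a gastrokine of gastric surface cells, read 10.73, 10.83 and 10.71 in duodenal arrays, against 6.49 and 6.46 in colonic arrays (at least 15.0-fold higher, adjusted p = 7.18e-17). The 7 gastric markers averaged 8.89 to 8.92 over duodenal and 6.75 to 6.77 over colonic arrays. Psca, a surface antigen gene, was at least 9.72-fold higher and Pgc, a pepsinogen gene, at least 7.81-fold higher. Muc6 and Atp4b were at background in both segments; Gkn2 averaged 15.19 in gastric arrays. The part of gastric cells or RNA in these values was not tested.

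Pancreatic-type digestive enzyme genes were lower in duodenal arrays for 17 of 19 and higher for 1 (median -1.03). Cela1, an elastase gene, read 9.34, 9.29 and 9.41 in duodenal arrays, against 11.03 and 11.05 in colonic arrays (3.23-fold lower, adjusted p = 5.39e-12). The trypsinogen genes Try10 and Try4 were 2.59-fold and 2.32-fold lower and Prss2 2.23-fold lower. Spink1, the trypsin inhibitor, read 13.61, 13.44 and 13.45 in duodenal arrays, against 14.84 and 14.64 in colonic arrays (2.36-fold lower, adjusted p = 1.38e-09). Pnlip, Cpb1, Cel and Ctrb1, named after their values were seen, were 1.99-fold, 2.10-fold, 2.04-fold and 2.11-fold lower. The exception was Pnliprp2, a lipase-related gene, which was 2.93-fold higher. Ptf1a, the defining factor of pancreatic acinar cells, was at background in both segments. The other 4 acinar markers, Cpa1, Cpb1, Pnlip and Cela2a, were above background in both, and with Ptf1a the list averaged 7.92 to 8.08 in duodenal and 8.71 to 8.72 in colonic arrays.

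Immune-related genes differed by compartment. Genes of intraepithelial T cells were higher in the duodenum for 13 of 18 and lower for none, with 7 at background in both segments. Cd3g, a T cell receptor component, read 8.87, 8.81 and 8.85 in duodenal arrays, against 6.48 and 6.76 in colonic arrays (at least 3.99-fold higher, adjusted p = 3.07e-12). Ccl5, a chemokine gene of cytotoxic lymphocytes, read 10.20, 10.25 and 10.24 in duodenal arrays, against 6.84 and 6.65 in colonic arrays (at least 10.4-fold higher, adjusted p = 2.20e-15). Colonic arrays were at background for both. Nkg7 and Klrd1, genes of cytotoxic cells, were at least 2.45-fold and at least 2.27-fold higher. In the tuft cell list, genes were higher for 15 of 19, with 5 at background in both segments. Alox5ap, needed for leukotriene synthesis, read 10.13, 10.05 and 10.26 in duodenal arrays, against 7.01 and 6.96 in colonic arrays (8.99-fold higher, adjusted p = 1.35e-13), and Avil, an actin regulator gene, 9.78, 9.81 and 9.73 in duodenal arrays, against 7.30 and 7.31 in colonic arrays (5.52-fold higher, adjusted p = 1.58e-14). Dclk1 was 2.62-fold and the taste channel gene Trpm5 at least 1.99-fold higher.

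MHC class II genes were lower in the duodenum. Of 18 antigen presentation genes 10 were lower and 4 higher. H2-Aa read 7.13, 6.81 and 6.78 in duodenal arrays, against 10.65 and 10.51 in colonic arrays (12.8-fold lower, adjusted p = 8.36e-14). Cd74, the invariant chain gene, read 9.86, 9.85 and 9.79 in duodenal arrays, against 12.95 and 12.98 in colonic arrays (8.75-fold lower, adjusted p = 3.45e-15), and H2-Ab1 8.88, 8.90 and 8.91 in duodenal arrays, against 11.33 and 11.35 in colonic arrays (5.44-fold lower, adjusted p = 6.18e-14). H2-DMb1, which loads peptides onto class II molecules, was 2.84-fold lower. Class I genes were divided, with H2-K1 3.08-fold higher and H2-T23 2.74-fold lower. B cell markers averaged 6.80 to 6.86 in duodenal and 6.65 to 6.72 in colonic arrays and macrophage markers 6.76 to 6.80 in duodenal and 6.75 to 6.76 in colonic arrays, both close to the background level, and among 12 other leukocyte genes 9 were at background in both segments, 4 were higher and 1 lower. Interferon-induced genes had no common direction (7 higher, 10 lower of 28), with Ifi27l2b 3.85-fold and Rsad2 2.43-fold higher and Gbp2 1.87-fold lower. Of 15 chemokine genes 4 were higher and 3 lower. Cxcl16, a membrane-bound chemokine, read 10.37, 10.34 and 10.47 in duodenal arrays, against 7.25 and 7.14 in colonic arrays (9.18-fold higher, adjusted p = 2.59e-15), and Ccl25, which draws lymphocytes to the small intestine, 12.51, 12.58 and 12.50 in duodenal arrays, against 11.11 and 11.10 in colonic arrays (2.69-fold higher, adjusted p = 8.16e-12). Cxcl1 was at least 2.52-fold lower. Ido1, which degrades tryptophan, read 14.25, 14.30 and 14.25 in duodenal arrays, against 10.17 and 10.09 in colonic arrays (17.5-fold higher, adjusted p = 1.72e-16), and was the 1 of 13 listed genes of tryptophan and NAD metabolism that was at least 2-fold higher. In that list 5 genes were higher and none was lower, and without colonic replicate 1, 1 was lower.

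Immediate early genes, which respond within minutes to stress and handling of cells, were lower in the duodenum for 16 of 24 and higher for none (median -0.70; without duodenal replicate 3, 1 gene was higher). Atf3 read 7.83, 7.86 and 7.74 in duodenal arrays, against 9.96 and 10.02 in colonic arrays (4.54-fold lower, adjusted p = 8.54e-13). Fosb read 8.35, 8.33 and 8.27 in duodenal arrays, against 10.24 and 10.22 in colonic arrays (3.77-fold lower, adjusted p = 3.07e-13) and Klf2 7.57, 7.63 and 7.57 in duodenal arrays, against 9.49 and 9.64 in colonic arrays (3.93-fold lower, adjusted p = 1.53e-12). Dusp1, Egr1 and Junb were 3.05-fold, 2.58-fold and 2.56-fold lower. Heat shock genes did not move as one, with 4 higher and 6 lower of 12, but the inducible gene Hspa1a read 8.29, 8.39 and 8.44 in duodenal arrays, against 11.07 and 11.19 in colonic arrays (6.76-fold lower, adjusted p = 6.16e-14). Its partners Bag3 and Dnajb1 were 1.87-fold and 1.73-fold lower. Of 11 genes of the unfolded protein response 1 was higher and 3 lower, a share near that over all rows, and with the filter on dim rows 3 were higher and 5 lower. The labels give the same dissociation steps for both segments, and the part of handling in these values was not tested.

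Cell cycle genes were lower in the duodenum for 6 of 21 and higher for 1, led by Top2a (1.38-fold lower), and the share called was close to that over all rows. Leaving out duodenal replicates 1, 2 or 3 gave 3, 2 and 2 higher genes. Genes of cell cycle exit were higher for 4 of 8 and lower for 1 (none lower without colonic replicate 2 or duodenal replicate 3). The inhibitor gene Cdkn1c read 10.42, 10.47 and 10.35 in duodenal arrays, against 8.28 and 8.29 in colonic arrays (4.37-fold higher, adjusted p = 2.95e-13) and its functional relative Cdkn2b 11.36, 11.33 and 11.24 in duodenal arrays, against 10.15 and 10.07 in colonic arrays (2.30-fold higher, adjusted p = 2.34e-10). Of 17 genes of crypt stem cells, 7 were lower and 2 higher. Olfm4, a stem cell gene of the small intestine, was 2.21-fold higher, whereas Lrig1 was 1.81-fold and Sox9 1.61-fold lower. In the Notch list 3 were higher and 4 lower of 18. Hes1, a Notch target, was 1.97-fold lower and Dner, an atypical ligand gene, at least 1.69-fold higher.

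Housekeeping and structural lists had members in both directions. Oxidative phosphorylation genes were higher for 15 and lower for 18 of 76, none by 2-fold, with a median of -0.03. Tight junction genes were higher for 7 and lower for 5 of 19. Cldn4 was 2.41-fold higher and Cldn2, a pore-forming claudin of crypts, 2.06-fold lower. Among 7 simple epithelial keratins 3 were higher and 2 lower. Krt23 read 11.64, 11.60 and 11.68 in duodenal arrays, against 7.81 and 7.93 in colonic arrays (13.6-fold higher, adjusted p = 7.21e-16). Krt8 and Krt19 were 1.24-fold and 1.59-fold lower. Krt18 was among the higher genes but did not pass when either colonic array was left out. Stromal, endothelial, neural and muscle genes were at background in both segments for 15 of 20, and red blood cell genes for 3 of 4.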

How the data were processed

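Illumina bead array values of sorted GFP-positive mouse cells were used as deposited: log2 expression values for 18131 gene rows, 1 per gene name, in 8 arrays. Per the labels' protocols, TRIzol RNA was made into biotin-labelled cRNA with an Ambion TotalPrep kit. The submitters' processing notes name GenomeStudio, lumi and limma, without versions or order. The sorted values of all arrays agreed within 0.00429, as after quantile normalization. The logarithm was taken to base 2; neither its base nor the way probes were joined to genes is stated in the labels. Depth does not apply to arrays, and their number limits the precision.

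From these values, limma 3.58.1 in R 4.3.3 fitted a mean per group to all 8 arrays, so that the gastric arrays share in the estimate of the spread. The contrast was duodenal minus colonic, with empirical Bayes moderation, Benjamini-Hochberg adjustment over 18131 rows and a threshold of 0.05. The fit was checked on simulated data. A mean under the 95th percentile of 1075 olfactory receptor rows was treated as background, and ratios then use, for each dim array, the higher of that level and the array's own value. Row names matched a current mouse gene for 16965 rows, of which 2660 through an older symbol, and 1166 rows kept the file's name. Promoter sequences are RefSeq's (GRCm38.p6).

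The comparison, the gene lists and the tests were chosen with earlier results of these data known. Genes named are the 25 highest and 25 lowest called rows with non-overlapping arrays, all hormone, regional factor and Hox genes, and the 6 largest differences of each of the other lists. A few genes that meet this rule are not reported here. Markers of cell types and genes said to be chosen after their values were seen are additions. The 75 listed genes that have no row are not analysed here. Alternatives changed the normalization, the filter on dim rows, the variance model, the arrays in the fit, array weights, the replicate block and the fold limit, and left out each array in turn.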

Additional observations from a re-analysis of the deposited data

How the results depend on the processing

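The count of 6203 rows called, 2909 higher and 3294 lower in duodenal than in colonic arrays, stayed within 1.5 times under every alternative except the limma test against a 2-fold difference, which by its construction called fewer: 463 rows, 273 higher and 190 lower. Leaving out each array in turn gave 5078 to 6136 rows in all, 2380 to 2876 higher and 2698 to 3260 lower. Restricting the fit to the 5 compared arrays gave 5934, a filter on dim rows 6065, and rows matched to a current gene, a setting chosen after seeing the data, 5842. With the replicate block 5941 rows were called, 2804 higher and 3137 lower. Same-numbered arrays did not deviate together (correlations between -0.01 and 0.01), so the numbers are not taken to pair the arrays. No named gene reversed. Under alternatives other than the 2-fold test, 26 of 385 named genes crossed the threshold, all with small differences. Hnf4a passed without duodenal replicate 3, and Maf, Onecut3, Hoxd9 and Hoxb13 did not pass without 1 of the colonic arrays. The filter on dim rows left 11 of the 17 lower Hox genes. Limited to rows matched to a current gene, 1 alpha-defensin row was higher and 1 lower. Signals near background, and those near the top of the scale, limit the ratios. With 2 colonic arrays, the spread within the colon rests on a single difference per gene.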
